A study of Mus musculus with 10 samples.

Results

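Binding sites of RBPJ that lay between genes, at an intermediate distance from the nearest promoter, were described in mouse brain pericytes. The peaks were chosen by their position and width in the list of RBPJ peaks: an interval narrower than 1500 bp, with its centre more than 5 kb and at most 50 kb from the closest start of a protein-coding transcript (transcription start site, TSS), outside every protein-coding gene body and with no TSS of a non-coding gene within 1 kb (GENCODE M21 on GRCm38). This gave 1048 intergenic peaks of 11094 RBPJ peaks, or 9.45%. The study profiled RD1 cells, labelled as untreated brain pericytes and grown in Pericyte Medium on dishes coated with collagen I, by chromatin immunoprecipitation and sequencing (ChIP-seq) with antibodies to RBPJ, histone H3 and its H3K4me1 and H3K4me3 forms, and sequenced input chromatin too, in 2 replicates per group. All groups shared this culture, with no deletion or added agent in the labels. Peak positions were analysed for the 2 RBPJ samples, whose files held the same bytes and were therefore counted as 1 list. Samples of the remaining groups, 8 in all, were not analysed here. The list has no height, score or read count, so the sequencing depth is unknown, the spread between replicates could not be calculated, and every interval and p-value here covers counting error over the peaks of 1 list only. No expression was measured in this series, so pericyte markers could not be checked.

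RBPJ is the DNA-binding factor of the Notch pathway. When a Notch receptor is cleaved after contact with its ligand, the freed intracellular domain joins RBPJ and Mastermind on DNA and switches target genes on, whereas RBPJ without Notch can recruit corepressors. RBPJ binds a short sequence with the core TGGGAA, and enhancers away from promoters often combine such sites with sites for factors such as AP-1 (Fos and Jun proteins), TEAD and RUNX. In pericytes, the mural cells of capillaries, Notch3 is a prominent receptor.

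Sequences around the core are shown here for intergenic peaks nearest to genes of the Notch, TGF-beta, matrix and mural lists, since they show what the counted motif looks like in its context. Each run has 80 bases of the GRCm38 plus strand, with TGGGAA (or TTCCCA, the same site on the other strand) and TGACTCA in capitals.
Notch1, chr2:26525792-26525871: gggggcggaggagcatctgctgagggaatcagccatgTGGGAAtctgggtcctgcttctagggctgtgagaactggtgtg
Notch1, chr2:26547582-26547661: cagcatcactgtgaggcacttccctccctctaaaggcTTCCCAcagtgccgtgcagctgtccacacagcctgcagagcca
Notch3, chr17:32117854-32117933: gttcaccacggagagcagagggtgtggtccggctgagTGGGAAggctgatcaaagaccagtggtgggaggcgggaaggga
Hes5, chr4:154946479-154946558: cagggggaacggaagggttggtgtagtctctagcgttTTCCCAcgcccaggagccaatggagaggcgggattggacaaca
Id1, chr2:152724069-152724148: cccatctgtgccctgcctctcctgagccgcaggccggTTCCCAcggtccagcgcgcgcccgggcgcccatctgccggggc
Smad6, chr9:64045408-64045487: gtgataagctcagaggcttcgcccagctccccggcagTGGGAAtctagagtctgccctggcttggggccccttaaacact
Ltbp1, chr17:74960684-74960763: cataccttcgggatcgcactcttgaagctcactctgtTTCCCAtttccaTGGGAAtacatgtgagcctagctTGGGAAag
Col5a1, chr2:27861844-27861923: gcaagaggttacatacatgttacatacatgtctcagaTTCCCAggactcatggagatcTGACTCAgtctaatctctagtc
Des, chr1:75343070-75343149: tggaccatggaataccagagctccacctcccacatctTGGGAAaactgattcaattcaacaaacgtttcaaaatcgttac

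The 2 Notch1 peaks differed in context. The nearer lay 9218 bp upstream of a Notch1 TSS and was 142 bp wide. A TGACTCA lay within 100 bp of its centre but not wholly inside the peak. The farther lay 30926 bp upstream, was 286 bp wide and held a TEAD sequence. The sequence near Ltbp1, which encodes a binding protein of latent TGF-beta, held 3 core sites within the printed 80 bases, and the one near Col5a1, a fibrillar collagen chain, held TGACTCA close to the core. The Hes5 run, upstream of a classical Notch target that encodes a repressor, held 1 core site and no TGACTCA.

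The peaks were short. Widths ran from 126 to 1497 bp with a median of 410 bp (quartiles 273 and 647 bp), and the peaks covered 529 kb in all. Distances from the TSS ran from 5013 to 49969 bp with a median of 20243 bp (quartiles 11412 and 32336 bp). These values follow from the rule. Just outside it, the narrowest peak left out for its width alone had 1505 bp, and the nearest ones left out for distance alone lay at 4999 and 50116 bp. The width alone removed 310 peaks and the non-coding TSS condition alone 117. RefSeq, an annotation the rule did not use, placed a transcript start of any kind within 1 kb of 56 of the 1048 peaks (5.34%) and a protein-coding gene over the centre of 34 (3.24%), so 962 peaks were intergenic and away from starts in both annotations. The centres of 142 peaks (13.5%) fell inside a non-coding gene of GENCODE.

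The RBPJ core TGGGAA was present in the central 200 bp of 446 of the 1048 intergenic peaks, or 42.6% (95% exact binomial interval 39.5 to 45.6%), where the share over all RBPJ peaks was 25.8%. In 87 peaks narrower than 200 bp the window ran past both edges, and in 1 peak the core was in the window but not in the interval. Windows of the same length 5 kb to the right of each centre held it in 210 cases, or 20%. The core was only in the peak in 356 pairs and only in the neighbouring window in 120 (exact McNemar test, adjusted p = 3.70e-27). In the genome, 16.9% of 200 bp windows that met the same position conditions held TGGGAA, and 16.6% of all windows. Matches were counted on both strands, and a match describes the letters of the sequence, not occupancy. Of the peaks, 358 had 1 core site in the window, 72 had 2, 15 had 3 and 1 had 4. Neither TGGGAA nor its variant TGAGAA was found in the central 200 bp of 476 peaks. Over the whole peak, 695 peaks (66.3%) held TGGGAA.

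The core gathered at the centre of the intervals. Within 40 bp of the centre its density was 3.76 sites per kb, against 1.09 sites per kb at 300 to 500 bp, a ratio of 3.45. AP-1 sites (TGACTCA) had the same ratio of 3.45, from 1.09 against 0.315 sites per kb. The ratio was 2.21 for TEAD, 1.51 for RUNX and 1.23 for the variant TGAGAA. In narrow promoter peaks, within 1 kb of a TSS, the core reached 1 site per kb at the centre and 0.977 at the same outer distance, a ratio of 1.02. Narrow intronic and far distal peaks, defined further on, also had the core at the centre, with ratios of 2.8 and 2.65, and their ratios for AP-1 were 4.9 and 5. These ratios were not tested.

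**Figure D1:**
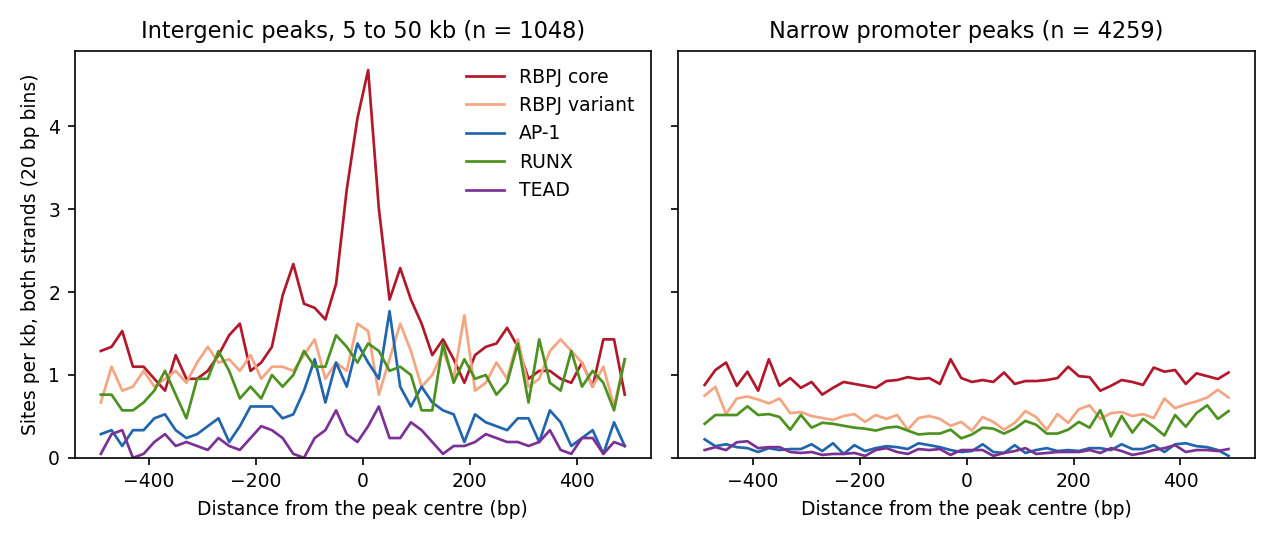
Sites per kb on both strands in bins of 20 bp against distance from the peak centre in bp, for the 1048 intergenic peaks and for 4259 narrow promoter peaks; each line is 1 motif, with no error shown. The core line rises at the centre of the intergenic peaks, to 4.68 sites per kb in the bin from 0 to 20 bp. Its density within 40 bp of the centre is 3.76 sites per kb. In promoter peaks the line stays near 1.

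Wider peaks held the core less often at their centre. Its share was 58.1% (interval 52.5 to 63.5%) in the 322 peaks under 300 bp, 46.1% in the 317 peaks from 300 bp, 31% in the 242 peaks from 500 bp and 22.8% (interval 16.6 to 29.9%) in the 167 peaks of 800 bp or more, where the neighbouring windows had 20.5, 15.8, 22.7 and 23.4%. The intervals of the narrowest and the widest class did not overlap. TGACTCA was at 21.7, 22.1, 12 and 4.19% in the same order. The excess of TGGGAA over neighbouring windows was therefore not detected in the centre of the 409 peaks of at least 500 bp (27.6 against 23%, exact McNemar test, adjusted p = 0.407). When the whole interval was read instead of its centre, a comparison chosen after these values were seen, 73.8% of these peaks held TGGGAA against 54.8% of neighbouring windows of equal length (exact McNemar test, adjusted p = 1.10e-08).

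**Figure D2:**
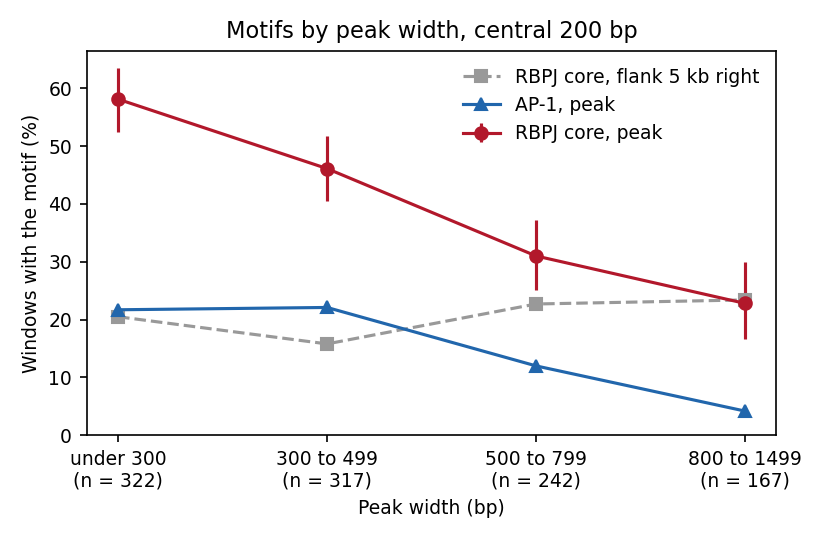
Percent of intergenic peaks with the RBPJ core (circles, bars are 95% exact intervals) or the AP-1 sequence (triangles) in the central 200 bp, by peak width in bp, with the core in windows 5 kb to the right (squares). The core goes from 58.1% in the narrowest class to 22.8% in the widest, where the neighbouring windows have 23.4%.

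The bases beside the core also differed from those in the neighbouring windows. G stood directly before TGGGAA at 34.2% of 547 sites in the peaks and at 18.5% of 443 sites in windows on both sides, and A stood directly after it at 39.1 and 27.1%. These shares of bases were not tested. The longer sequence GTGGGAA, which contains the core, was found in 174 peaks, or 16.6%, where the share over all RBPJ peaks was 9.30%. Neighbouring windows had 4.39% (exact McNemar test, adjusted p = 5.02e-20). The variant TGAGAA was found in 21.1% of peaks and 17.7% of neighbouring windows, which did not pass the threshold (exact McNemar test, adjusted p = 0.148).

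Of the 27 motifs compared, 10 were more frequent in the intergenic peaks than in the neighbouring windows, 2 were less frequent and 15 did not pass, so that 44.4% were called. P-values were adjusted over 108 tests, 27 motifs in 4 comparisons. AP-1 was the clearest after RBPJ: TGACTCA stood in 176 peaks, or 16.8% (interval 14.6 to 19.2%), against 4.39% of neighbouring windows (exact McNemar test, adjusted p = 3.40e-20), with 8.29% over all RBPJ peaks and 3.24% of eligible genome windows. The TEAD sequence ACATTCC was found in 68 peaks, or 6.49%, against 2.86% (exact McNemar test, adjusted p = 4.00e-04), with 3.89% over all RBPJ peaks and 2.68% of eligible windows. Its reverse GGAATGT can share letters with TGGGAATG. NFI, a family of nuclear factors read here as TTGGCA, was at 13.5 against 7.82%, the E-box CAGCTG at 15.9 against 9.83% and the C/EBP sequence TTGCNCAA at 3.91 against 1.15%. Over all RBPJ peaks these were at 9.65, 12.5 and 2.12%. The Sp/KLF sequence GGGCGG, typical of promoters rich in CG, was at 9.83 against 3.72% (exact McNemar test, adjusted p = 2.44e-07). EBF (CCCNNGGG) was at 8.4 against 5.44% (exact McNemar test, adjusted p = 0.027) and AGGGGGC, part of the CTCF motif, at 4.48 against 2.39% (adjusted p = 0.0284). These 3 sequences were less frequent in the intergenic peaks than over all RBPJ peaks, where they were at 30.3, 11.9 and 6.7%, and less frequent than in promoter peaks, which had 57.8, 16.8 and 10.3%. The homeobox sequence TAATTA was less frequent in the peaks, at 2.39 against 5.06% (exact McNemar test, adjusted p = 0.00255), as was CCAAT at 20.8 against 25.4% (adjusted p = 0.0461), with 2.18 and 19.9% over all RBPJ peaks. RUNX sites (TGTGGT) were in 209 peaks, or 19.9%, against 17.7% (exact McNemar test, adjusted p = 0.354), with 12.1% over all RBPJ peaks and 14.5% of eligible windows.

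Base composition moved with these motifs. The central 200 bp had a GC content of 51.2% ± 7.59 (SD, n = 1048 peaks) against 45.6% ± 7.46 in the neighbouring windows, 4.19 against 2.18 CG dinucleotides on average, and 12.5 against 32.9% of bases in annotated repeats. The part of composition in the motif differences was not tested, and leaving out matches in repeats gave TGGGAA in 39.4% of peaks and 14% of neighbouring windows (exact McNemar test, adjusted p = 1.95e-38). The 97 peaks with 10 or more CG dinucleotides held TGGGAA in 36.1% and TGACTCA in 7.22%, and the remaining 951 held them in 43.2 and 17.8%.

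No difference in motif content from narrow peaks inside genes was detected. Against 1138 narrow intronic peaks, defined by the same width and distances but centred in a protein-coding gene body, 0 of 27 motifs passed the threshold (0% called) in Fisher's exact test with Benjamini-Hochberg adjustment, and 2 had an unadjusted p under 0.05. TGGGAA was in 42% of intronic peaks, a difference of 0.554 percentage points (95% interval -3.58 to 4.69). Far distal peaks, 1279 in all, met the same width and non-coding TSS conditions but lay more than 50 kb from a TSS. They could be centred inside or outside a gene body. Against far distal peaks, 7.41% of motifs were called. GGGCGG was more frequent in the intergenic peaks (9.83 against 5.79%, Fisher's exact test, adjusted p = 9.98e-04) and the GATA sequence AGATAA less frequent (11.5 against 14.9%, adjusted p = 0.043). TGGGAA differed by 2.68 points (interval -1.33 to 6.7), and TGACTCA was at 16.8 against 20.2% (Fisher's exact test, adjusted p = 0.108). Against 4259 narrow promoter peaks, 85.2% of motifs were called, 15 more frequent and 8 less frequent in the intergenic peaks. Promoter peaks had TGGGAA in 16.6% (difference 25.9 points, interval 22.7 to 29.1, Fisher's exact test, adjusted p = 1.86e-64), TGACTCA in 2.14% and GGGCGG in 57.8%. Their GC content was 66.5% ± 8.97 (SD), and composition and class cannot be told apart here. Promoter peaks were also wider, with a median of 675 against 410 bp. The difference in TGGGAA was 14.8 points among peaks of at least 500 bp (27.6 against 12.8%) and 16.8 points over whole peaks (66.3 against 49.5%), and both passed the threshold.

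**Figure D3:**
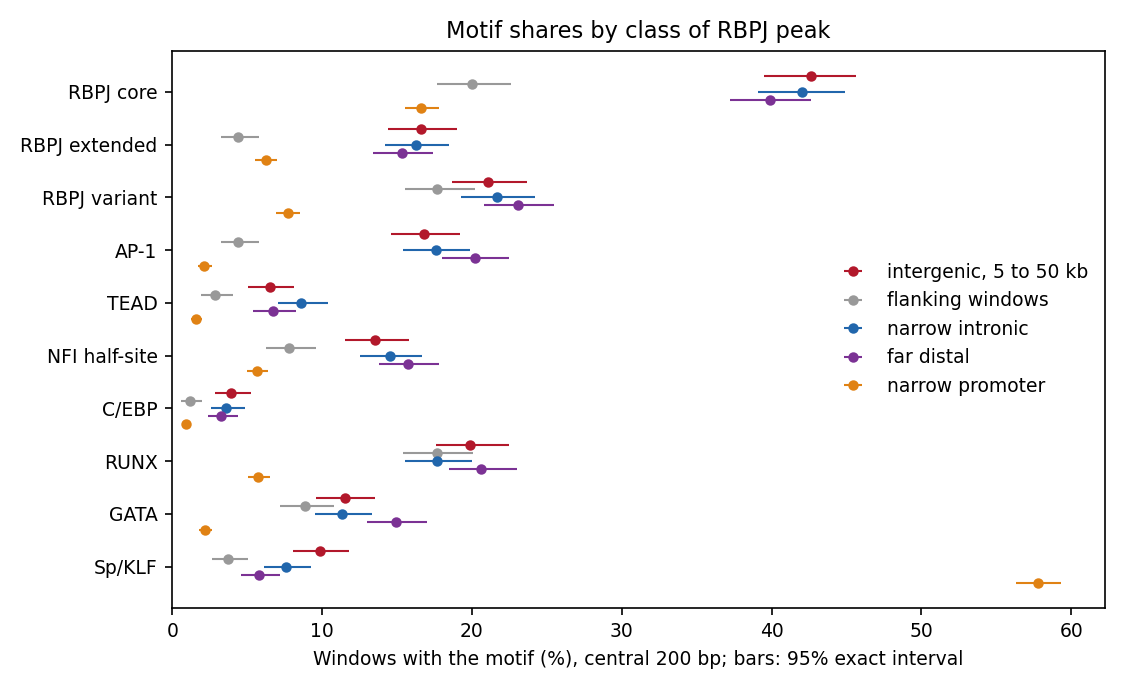
Percent of windows with each of 10 motifs in the central 200 bp, for the intergenic peaks, the windows 5 kb to the right, narrow intronic, far distal and narrow promoter peaks; bars are 95% exact binomial intervals. The intergenic peaks lie beside the intronic and far distal peaks, and apart from promoter peaks, which have 57.8% for Sp/KLF and 16.6% for the core.

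No difference in AP-1 between peaks with and without the core passed the threshold. Both sequences were found in 87 peaks, the core without AP-1 in 359, AP-1 without the core in 89 and neither in 513. AP-1 was at 19.5% with the core and 14.8% without it, a difference of 4.72 points (interval 0.142 to 9.44) that did not pass after adjustment over 3 motifs (Fisher's exact test, p = 0.0452, adjusted p = 0.136). In the central 100 bp the difference was 1.3 points (10.6 against 9.26%, Fisher's exact test, adjusted p = 1). RUNX was at 17.9 and 21.4% (Fisher's exact test, adjusted p = 0.276) and TEAD at 6.5 and 5.65% (adjusted p = 0.6), with matches that overlap the core left out.

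Some peaks held 2 RBPJ sites facing each other, the orientation found in a sequence-paired site, on which RBPJ and Notch complexes can dimerise. With TGGGAA and TGAGAA both accepted, 46 head-to-head pairs were separated by 11 to 21 bases, against 13 tail-to-tail and 29 tandem pairs. Of the head-to-head pairs, 19 had 14 bases between the sites, whereas the other spacings had 0 to 5 pairs each. These 19 pairs lay in 19 peaks: 7 joined 2 TGGGAA sites, 5 joined 2 TGAGAA sites and 7 had 1 of each. Of the 19 peaks, 18 were under 500 bp wide, and 15 of the pairs were centred within 50 bp of the peak centre. The spacing was known from earlier results of these data, so the counts are a description without a test. Whether complexes dimerise on sites 14 bases apart was not tested. The share of peaks with such a pair was 1.81% (interval 1.09 to 2.82%), beside 0.967% of intronic, 2.19% of far distal and 0.164% of promoter peaks.

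The pairs with 14 bases between 2 TGGGAA sites outside annotated repeats are shown to display the spacing, followed by pairs of TGGGAA and TGAGAA near Rspo3, which encodes a secreted enhancer of Wnt signalling, and Mgp, which encodes an inhibitor of calcification. Capitals mark the sites on the GRCm38 plus strand.
Prrc2b, chr2:32142493-32142538: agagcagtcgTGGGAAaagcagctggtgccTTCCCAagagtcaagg
Klf2, chr8:72331184-72331229: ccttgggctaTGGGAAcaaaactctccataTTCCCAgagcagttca
Rnf182, chr13:43592630-43592675: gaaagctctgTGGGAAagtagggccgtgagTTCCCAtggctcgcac
Slc25a36, chr9:97061010-97061055: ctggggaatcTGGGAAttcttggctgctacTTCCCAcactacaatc
Ube2g2, chr10:77650127-77650172: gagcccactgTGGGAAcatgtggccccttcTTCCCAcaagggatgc
Pcbp1, chr6:86561314-86561359: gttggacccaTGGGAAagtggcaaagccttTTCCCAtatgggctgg
Rspo3, chr10:29543286-29543331: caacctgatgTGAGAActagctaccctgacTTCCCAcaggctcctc
Mgp, chr6:136895188-136895233: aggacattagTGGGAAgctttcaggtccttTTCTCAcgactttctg

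The pair near Klf2, a transcription factor known for its response to flow in endothelium, lay 12267 bp downstream of the TSS. Prrc2b and Pcbp1 encode RNA-binding proteins, Rnf182 and Ube2g2 encode enzymes of ubiquitin transfer and Slc25a36 encodes a mitochondrial carrier. The letters between the sites differed among these 8 pairs, while the spacing did not, since it chose them.

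**Figure D4:**
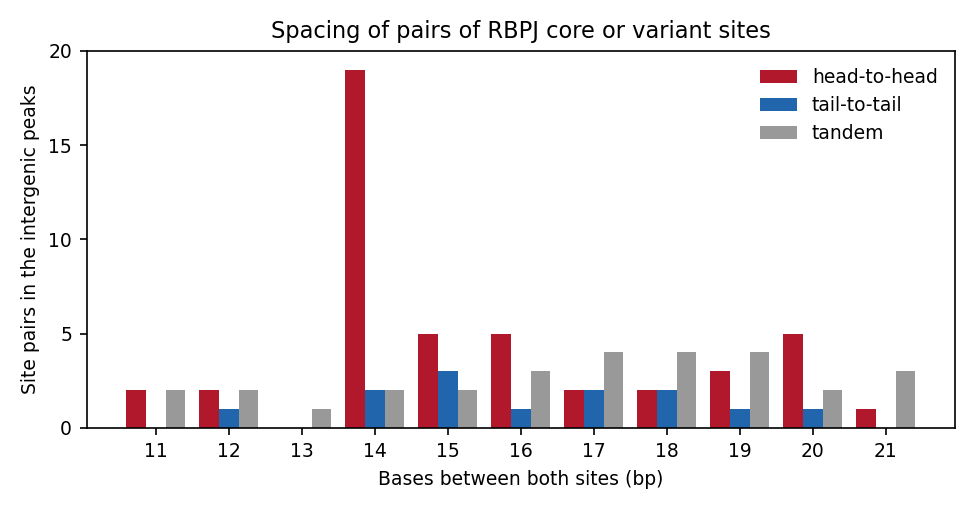
Number of pairs of RBPJ core or variant sites in the 1048 intergenic peaks against the bases between both sites, by orientation; bars are counts with no error. Head-to-head pairs reach 19 at 14 bases, and no other spacing or orientation passes 5.

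Within the allowed distances, neither the side of the TSS nor the share at 5 to 10 kb passed the threshold against the space open to the peaks. Bases that met the position conditions made up 428 Mb, which gave 2.45 peaks per Mb. Of the peaks, 725 (69.2%, interval 66.3 to 72%) lay upstream of the nearest TSS, against 67.9% of the eligible bases (exact binomial test, p = 0.39, adjusted over 2 tests p = 0.39). Over 5 to 10 kb from the TSS there were 212 peaks, or 20.2%, against 18.2% of eligible bases (exact binomial test, p = 0.0848, adjusted p = 0.17). With 1 peak kept per run of neighbouring peaks the latter difference was 2.83 points (exact binomial test, unadjusted p = 0.0287), and in peaks of at least 500 bp it was 0.425 points (p = 0.798). The density was 2.73 peaks per Mb at 5 to 10 kb, 2.48 at 10 to 20 kb, 2.44 at 20 to 35 kb and 2.18 at 35 to 50 kb, and the core stood in 42.9, 45.1, 42.2 and 39.2% of these peaks. The fall in density with distance was not tested.

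Density varied more between chromosomes. Chromosome 4 had 22 peaks (0.892 per Mb), chromosome 7 had 14 (0.463), chromosome X had 13 (0.389) and chromosome Y had 2 (0.174). The other 17 autosomes had 2.09 to 4.5 peaks per Mb with a median of 2.83, and chromosome 15 was the highest. The full RBPJ list was likewise short on chromosomes 4, 7 and X, with 158, 146 and 144 peaks against 350 to 1016 on the other autosomes. These chromosomes were singled out with earlier results known, and no test was made. The cause was not tested.

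**Figure D5:**
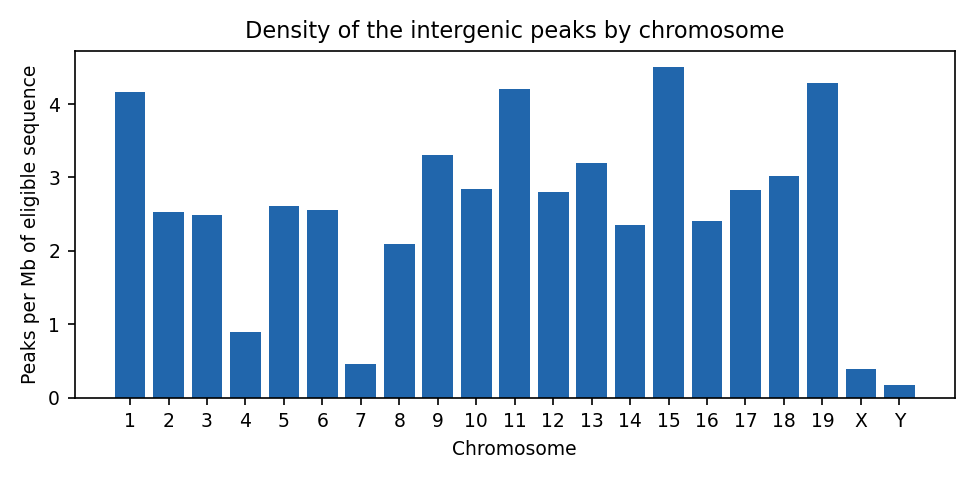
Intergenic peaks per Mb of eligible sequence on each chromosome; bars are densities from 1 list, with no error. Chromosomes 4, 7, X and Y lie at 0.892 per Mb or lower, and the other autosomes at 2.09 or higher.

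The nearest other RBPJ peak of any kind was 25460 bp away at the median (quartiles 11176 and 54071 bp), and 228 peaks (21.8%) had one within 10 kb. Runs of intergenic peaks less than 50 kb apart numbered 108 and held 241 peaks, 4 at most. The nearest gene also had an RBPJ peak within 1 kb of a TSS for 426 of the 1048 peaks, or 40.6%. Of all protein-coding genes, 27.4% had such a peak, which is a share of genes and not of peaks. The 40.6% was less than the 47.8% of intronic peaks (difference -7.15 points, interval -11.3 to -2.99, Fisher's exact test, p adjusted over 2 tests 0.00156) and the 46.6% of far distal peaks (difference -5.95, interval -9.96 to -1.9, adjusted p = 0.00431). With a promoter peak defined within 500 bp, the difference from far distal peaks was -3.94 points and no longer passed (Fisher's exact test, unadjusted p = 0.0505).

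The peaks were shared among 940 nearest protein-coding genes, 4.28% of 21938. Of these, 843 had 1 peak, 87 had 2, 9 had 3 and 1 had 4. Nearness in sequence does not show which gene a site acts on. Trib1, which encodes a pseudokinase, had 4 peaks, from 10111 to 32929 bp away on both sides. The core was in the central 200 bp of 1 of them and in the whole interval of 2. Col6a2, a collagen VI chain, had 3 peaks upstream at 19527, 25193 and 41298 bp. All 3 held more than 1 core site, with 3, 2 and 2 sites in the central 200 bp, and the middle peak also held 3 TGACTCA. Kif5b, a kinesin motor, had the core in the central 200 bp of 3 of 3 peaks, with 1 site each. Sdc1, which encodes the heparan sulfate proteoglycan syndecan-1, had it there in 2 of 3, at 40095 and 46352 bp downstream. Tns3, an adhesion protein, Irf2bp2, a corepressor, Usp46, a deubiquitinase, and G530012D18Rik had it there in 1 of 3 each, and Gpr37l1 in 0 of 3. Over the whole interval, Irf2bp2 and Gpr37l1 had the core in 2 of 3 peaks each.

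Among Notch pathway genes, 4 of 38 (10.5%) were the nearest gene of an intergenic peak, beside 4.28% of all protein-coding genes. These were Notch1 and Notch3, which encode receptors, with 2 peaks each, and Hes5 and Nrarp, known targets, with 1 each. The core was in the central 200 bp of 4 of these 6 peaks, where the share over all intergenic peaks was 42.6%. Neither count was tested. Of the Notch3 peaks, the one 19918 bp downstream of the TSS was 617 bp wide and held 2 core sites, and the one 27170 bp downstream was 138 bp wide and held none. The Nrarp peak, 7787 bp upstream, had 0 core sites in its central 200 bp and 2 in its whole 783 bp, with 1 AP-1 sequence in the central window. Notch1, Notch3 and Nrarp also had a promoter peak, and Hes5 did not.

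Of 37 genes of the TGF-beta and BMP pathway, 8 (21.6%) were nearest to a peak each, beside 4.28% of all protein-coding genes. Ltbp1 and Tgfbr3 (a coreceptor) act at the ligand and receptor, Bmp6 is a ligand, Bambi is a decoy receptor, Smad6 and Smad7 are inhibitory Smads, and Id1 and Id4 are targets. The core was in the centre of 3 of the 8 (37.5%), those of Ltbp1 (3 sites), Smad6 and Id1. Over all intergenic peaks this share was 42.6%. The Smad6 peak lay 23348 bp upstream and the Id1 peak 12071 bp upstream. The Smad7, Tgfbr3, Bmp6 and Id4 peaks held 2, 2, 1 and 1 core sites elsewhere in the interval, and that of Bambi held none.

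Matrix genes had 8 of 44 (18.2%) nearest to a peak, beside 4.28% of all protein-coding genes. Col5a1 had 2 peaks, at 24603 and 27597 bp upstream, and both held the core and TGACTCA. Ccn1, a matricellular protein, also had 2, of which the one 17078 bp downstream held the core in its central 200 bp and the one 35209 bp upstream held 1 core site elsewhere in the interval. The peaks of Col1a1, Col4a1, Nid2, Sparc, Lox and Timp2 had no core site in the central 200 bp, and those of Nid2 and Timp2 held 1 each elsewhere in the interval. The Sparc peak was the closest to its TSS of this group, at 5207 bp. Among mural genes, 3 of 30 (10%) were found: Notch3, Foxc1 and Des, the intermediate filament desmin. The Des peak of 167 bp lay 17230 bp upstream and held 1 core site. Of 18 contractile genes, Tpm1 and again Des were found (11.1%). Of 27 genes for AP-1, RUNX, TEAD and ETS factors, 4 (14.8%) were found: Fos with 2 peaks and Fosl2, Ets2 and Fli1 with 1 each. The core was in the central 200 bp of 3 of these 5 peaks and in the whole interval of all 5. Over all intergenic peaks these shares were 42.6 and 66.3%. None of the 11 listed genes that the study named as bound by RBPJ was the nearest gene of an intergenic peak. With 4.28% of all protein-coding genes nearest to a peak and 0.384 Mb of eligible bases around these 11 genes, this count is not a result about the list.

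Lists of other cell types were counted in the same way. Of 15 endothelial markers, Cdh5, Kdr, Flt1 and Egfl7 (26.7%) were nearest to 1 peak each. Of 16 neural and glial markers it was Snap25 alone (6.25%), and of 10 myeloid markers none, beside 4.28% of all protein-coding genes. Genes differ in the space around them, so peaks were also set against the eligible bases of each list. This gave 6.93 peaks per Mb for the Notch list, 6.05 for TGF-beta and BMP, 5.81 for matrix, 5.27 for mural, 4.83 for contractile, 6.47 for the factors, 7.99 for endothelial, 1.99 for neural and glial and 0 for myeloid genes, beside 2.45 over all genes. The eligible bases came to between 0.121 and 1.72 Mb per list, so each density rests on 10 peaks or fewer. No list was tested.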

How the data were processed

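ChIP-seq of RBPJ, H3K4me1, H3K4me3, histone H3 and input was made in RD1 cells in 10 samples, grouped and numbered by their titles. As described in the study's methods, reads were aligned by the authors with bowtie (build GRCm38) and freed of duplicates. MACS2 and PeakRanger were then run on both RBPJ replicates. The authors merged nearby peaks, kept regions with several overlapping calls and removed blacklisted regions. FastQC, Picard, SAMtools and deepTools also appear in the submitters' processing notes. The deposited values are peak start and end positions in bp, with no score, signal or summit. After merging, the midpoint of a wide interval may lie away from the bound sequence.

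Starts were counted from 1. The reference was GRCm38.p6 with GENCODE M21 (54327 protein-coding TSS positions), and 0 peaks ran past a chromosome end. Motif matches on either strand were counted over the 200 bp around each centre. GTGGGAA contains TGGGAA, and GGGANTTCC (NF-kB) can share letters with it. Windows 5 kb to the right were compared by the exact McNemar test, and other peaks by Fisher's exact test with Newcombe intervals for differences. Positions were compared with eligible bases by the exact binomial test. Tests were two-sided, p-values were adjusted by the Benjamini-Hochberg method and the threshold was 0.05. Shares have 95% exact (Clopper-Pearson) intervals, which cover counting error only. The motif comparison was tested on simulated data.

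The peaks and gene lists were chosen with earlier results of these data known. Genes named were those of the lists nearest to a peak, the 10 genes with the most peaks (of which 1 is not reported here), and genes beside printed sequences. The sequences printed were selected from peaks that met the rule for site pairs or listed genes. Alternatives covered window, flank, repeats, width, TSS set, peak edge, chromosomes and runs of peaks. Tests used scipy 1.17.1 and statsmodels 0.14.6 under Python 3.11.15, tables used pandas 2.3.3 and numpy 2.4.6, and plots used matplotlib 3.10.9.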

Additional observations from a re-analysis of the deposited data

How the results depend on the processing

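No paired analysis was possible because both RBPJ files hold the same list, so that replicate numbers pair no samples. The test against neighbouring windows pairs each peak with its own window. Since the files are the same, leaving out either replicate gave 1048 peaks each time (range 1048 to 1048). The excess of TGGGAA over neighbouring windows kept its direction and passed the threshold in 13 of 14 alternatives and ranged from 4.65 to 28.7 points. The exception was peaks of at least 500 bp, which left 409 peaks and a difference of 4.65 points (exact McNemar test, adjusted p = 0.407). Reading the whole interval of these peaks (19.1 points) and leaving out peaks at RefSeq starts or genes (22.6 points) were chosen after seeing the data. The same width limit reversed the differences in TGGGAA from intronic (-1.02 points) and far distal peaks (-0.186 points) and in the upstream share from eligible bases (-0.683 points), none of which passed before or after. The difference from promoter peaks kept its direction and passed in 8 of 8 alternatives, from 10.4 to 26.5 points. With 1 peak per run, the share at 5 to 10 kb was 2.83 points above eligible bases (exact binomial test, unadjusted p = 0.0287). The threshold applies to adjusted p-values, so this unadjusted value does not show that the share passed. In peaks of at least 500 bp the share was 0.425 points above eligible bases (exact binomial test, unadjusted p = 0.798). With promoter peaks within 500 bp the difference from far distal peaks no longer passed (-3.94 points, Fisher's exact test, unadjusted p = 0.0505). In the central 100 bp, the difference in RUNX (0.0186 points) and in TEAD (-0.52 points) between peaks with and without the core reversed, and that in AP-1 was 1.3 points. None of the 3 passed. The number of motifs that differed from neighbouring windows was 12 and ranged from 10 to 14. Except where construction by width or sample number shows it, the cause was not tested. With positions alone, a weak site cannot be told from a strong one.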

Other observations

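All 2080 hexamers, each counted together with its reverse complement, were ranked by the ratio of intergenic peaks to windows 5 kb away on both sides that held them in the central 200 bp (counts plus 1). The highest ranks went to sequences rich in CG: CCGCGC, ranked 1, was in 44 peaks, or 4.2%, against 0.429% of the windows, a log2 ratio of 3.03. The RBPJ core TGGGAA was ranked 165, in 42.6% against 19.2%, a log2 ratio of 1.14. GTGGGA was ranked 156 (29 against 12.8%, log2 ratio 1.17) and GACTCA, part of the AP-1 sequence, 167 (22.5 against 10.2%, log2 ratio 1.14). Thus the rare CG-rich hexamers had larger ratios, and the RBPJ and AP-1 hexamers were in more peaks. No test was made.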
